A study of Mus musculus with 6 samples.

Results

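The SR proteins (symbols Srsf and a number) and the hnRNP proteins (symbols that begin with Hnrnp) were followed in 6 Illumina bead arrays of CD-1 mouse embryos, an outbred stock, at embryonic day 13.5. The members were chosen by symbol in the array's annotation, and were 30 of the 19057 genes measured, of which 10 were Srsf and 20 were Hnrnp genes. Where a gene had several probes, the one with the highest mean over the 6 arrays stood for it, so the probe was selected on its overall signal. The families were taken up with their differences between these tissues already known, and those differences are given as a description. The compared groups were 3 libraries titled tooth germ and 3 libraries titled oral tissue. Both carry the same stock and age, and no treatment or allele is given. The labels call the libraries biological replicates and tie each numbered pair to a shared litter, which gives 3 pairs. How many embryos went into a library is not stated.

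SR proteins bind short exonic sequences through RNA recognition motifs and recruit the spliceosome through a tail rich in arginine and serine, whose phosphorylation is set by the SRPK and CLK kinases. The hnRNP proteins coat the nascent transcript, and many of them hold back the use of nearby exons or act in export, localisation and decay of the mRNA. Many genes of both families limit their own level by including a poison exon that sends the transcript to nonsense-mediated decay. At the bud stage the molar holds dental epithelium and condensing mesenchyme, and these layers are known to splice the FGF receptor Fgfr2 into different isoforms, under the epithelial regulators Esrp1 and Esrp2.

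The labels conflict over the identity of the samples. The 3 libraries with tooth germ in the title are described as mandibular tissue outside the bud by their source name and tissue fields, and the other 3 the other way round. Libraries are named here by title. If the source fields are right, every sign below turns. The dental mesenchyme factor Msx1 had a log2 difference of 1.47 (titled tooth germ minus titled oral tissue) and Shh, a ligand of dental epithelium, one of 0.78, while the myogenic factor Myog had one of -1.54 (limma adjusted p = 6.3e-05, 0.0022 and 1.6e-05). Of 11 skeletal muscle markers 10 were lower in titled tooth germ, and their mean signal ran from 9.14 to 9.37 there, against 10.59 to 11.23 in titled oral tissue. Of 10 surface epithelium markers 6 were higher and 1 lower, with a mean signal of 10.41 to 10.55 against 9.81 to 10.01. The 5 dental epithelium markers measured were all higher, as were 5 of 9 dental mesenchyme markers, while 3 of 8 neuron, 1 of 7 endothelial and 6 of 7 macrophage markers were lower, and 0 of 6 erythroid and 0 of 6 cartilage markers were called by limma (0 and 1 at an unadjusted p under 0.05).

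In the fit without litter no SR or hnRNP gene passed the test between the tissues, and with litter as a block Srsf9 and Hnrnpdl did (adjusted p = 0.0205 and 0.0238). Without the block, 0 of the 30 genes were called at an adjusted p under 0.05 (limma, fitted and adjusted over all 19057 genes), while 5.81% of all genes were called, 2.39% as higher and 3.42% as lower in titled tooth germ. Among genes with a mean signal above 10, 0 of 18 members were called in that fit, against 7.87% of all such genes, 3.35% as higher. At an unadjusted p under 0.05 there were 8 of 30 members, 7 of them higher, against 17.1% of all genes and 8.25% as higher. The largest member differences were 0.26 upward and -0.27 downward on the log2 scale, and 86.4% of the 1107 called genes of the array had larger ones. The 95% intervals of all 30 members, from the fit without litter, lay between -0.43 and 0.46. Each of them left out a log2 difference of 0.5 in either direction. Intervals with litter as a block were not computed. The bound of 0.5 covers the brightest probes only, and a dimmer Hnrnpa0 probe differed by 0.44 (SE 0.16). For the 4 members with a mean under 7.5 a difference may be understated. In bulk tissue, fewer cells of a type and less RNA per cell cannot be told apart.

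The small differences leaned to one side. They were above 0 for 26 of 30 members, and for 21 to 28 of them under the alternative settings. The share above 0 was 51.8% among all genes and 54.1% among the genes with a mean signal above 10. The median log2 difference over the members was 0.084, and the medians within the litters were 0.12, 0.092 and 0.069. For all genes the median was 0.0026. All 10 Srsf genes and 16 of 20 Hnrnp genes were above 0, with medians of 0.18 and 0.065. Under the alternative settings 8 to 10 Srsf genes were above 0, with 8 at the second brightest probes. Genes with a single probe kept it in that setting, so Srsf4, Srsf9 and Srsf12 repeated their main values there. The groups did not overlap for 9 members, 8 of them higher in titled tooth germ, against 23.1% of all genes in either direction and 11.9% upward. These counts describe genes that share libraries, and neither the lean nor the gap between the families was tested.

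**Figure D1:**
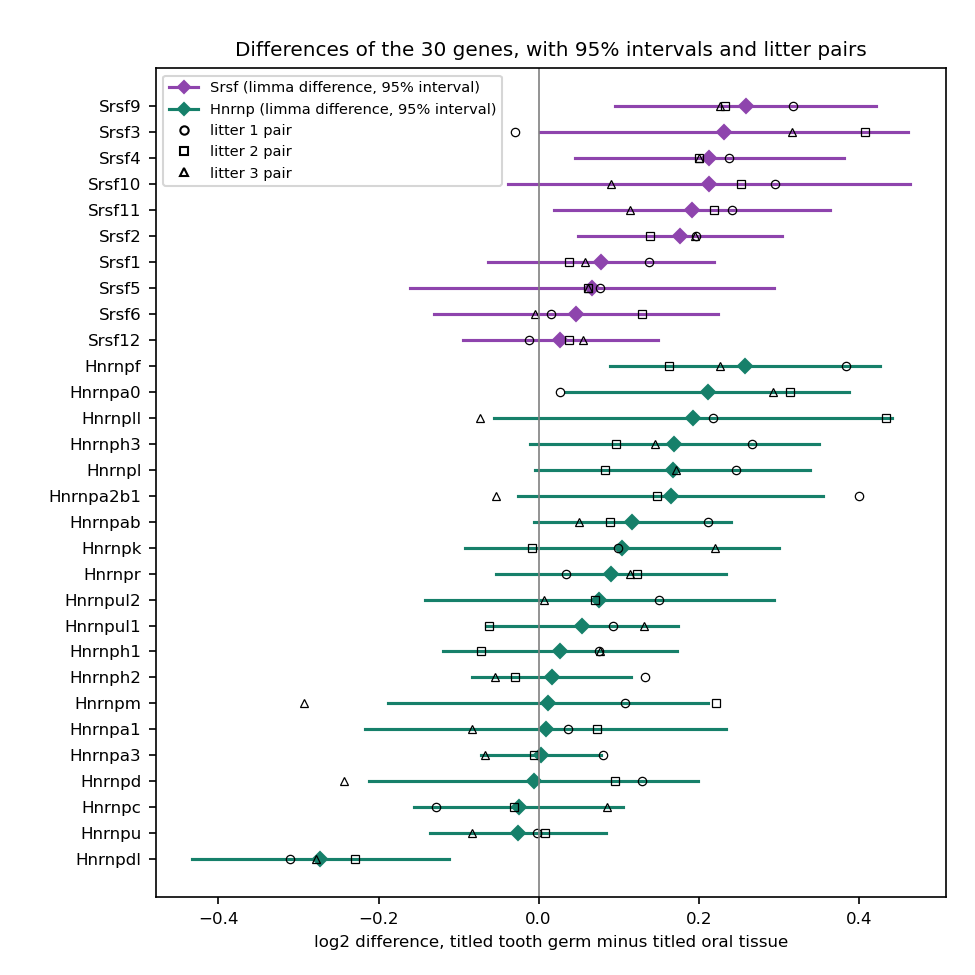
Log2 differences, titled tooth germ minus titled oral tissue, of the 10 Srsf and 20 Hnrnp genes, with diamonds for the limma difference, bars for its 95% interval and open symbols for the 3 litter pairs. All 10 Srsf diamonds lie right of 0, and Hnrnpdl lies furthest to the left at -0.27. The intervals come from the fit without litter, and those of 5 Srsf and 3 Hnrnp genes leave out 0.

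Libraries of the same litter deviated together, so the fit was repeated with litter as a block. Then 1 member rose and 1 fell, Srsf9 and Hnrnpdl, while 8.88% of all genes were called, 3.86% as higher and 5.02% as lower. The promoters of both genes are shown because these were the 2 members called within litters, and that of Hnrnpd because it is the nearest relative of Hnrnpdl on the chromosome, with 1 protein-coding gene between them. The windows are those of RefSeq on GRCm38.p6, from 250 bases before to 50 after the start, written 5′ to 3′ on the gene's strand, at chr5:115326927-115327226 on the plus strand and at chr5:100039173-100039472 and chr5:99978889-99979188 on the minus strand. Capitals mark the GC box GGGCGG on either strand and, in Hnrnpd, also the ETS core CCGGAAG on the reverse strand.
Srsf9: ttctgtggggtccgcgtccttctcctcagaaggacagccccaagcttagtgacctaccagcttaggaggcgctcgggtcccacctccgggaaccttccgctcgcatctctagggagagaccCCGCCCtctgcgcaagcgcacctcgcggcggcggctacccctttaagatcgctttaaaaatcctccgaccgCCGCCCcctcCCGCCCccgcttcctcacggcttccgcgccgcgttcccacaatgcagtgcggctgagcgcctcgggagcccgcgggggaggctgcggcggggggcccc
Hnrnpdl: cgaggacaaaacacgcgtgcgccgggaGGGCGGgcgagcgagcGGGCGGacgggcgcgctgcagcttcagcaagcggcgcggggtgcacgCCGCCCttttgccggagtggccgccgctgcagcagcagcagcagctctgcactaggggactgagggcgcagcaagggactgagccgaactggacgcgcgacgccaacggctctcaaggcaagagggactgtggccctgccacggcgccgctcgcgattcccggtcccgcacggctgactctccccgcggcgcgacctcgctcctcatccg
Hnrnpd: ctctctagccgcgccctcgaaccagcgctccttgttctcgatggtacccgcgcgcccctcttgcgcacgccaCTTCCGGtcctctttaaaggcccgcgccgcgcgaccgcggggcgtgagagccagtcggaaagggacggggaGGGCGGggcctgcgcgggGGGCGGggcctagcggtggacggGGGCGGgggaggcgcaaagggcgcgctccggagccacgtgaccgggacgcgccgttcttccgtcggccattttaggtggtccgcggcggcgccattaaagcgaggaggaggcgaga
All 3 windows hold 3 GC boxes, none holds a CCAAT box (CCAAT) or a TATA box (TATAAA), and the Srsf9, Hnrnpdl and Hnrnpd windows hold 32, 42 and 45 CpG dinucleotides.

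Such CG-rich starts were common among the members. Windows were found for 28 of them, and their median CpG count was 31.5, against 7 over the first listed windows of 27025 genes. These 27025 genes were neither limited to those measured here nor matched to the members in signal. The GC box stood in 22 of the 28, against 35.9% of all windows, and the CCAAT box, on either strand, in 16 of the 28, against 37.9%. The ETS core stood in 5 of 28 (9.12% of all windows), TATAAA in 4 of 28 (14.2%) and the NRF1 motif, searched in its palindromic form, in 0 of 28 (0.977%). A match is a run of letters and not a shown binding site.

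Srsf9, a short SR protein related to Srsf1, had signals of 12.46, 12.49 and 12.57 in titled tooth germ, against 12.14, 12.25 and 12.35 in titled oral tissue. Every tooth germ library lay above every oral tissue library. The log2 difference was 0.26 (SE 0.074, limma adjusted p = 0.0713, litter block adjusted p = 0.0205), or 1.20-fold. The array has 1 probe for it.

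Srsf2, also known as SC35 and used as a marker of nuclear speckles, had signals of 13.47, 13.43 and 13.53 in titled tooth germ, against 13.28, 13.29 and 13.34 in titled oral tissue. The groups did not overlap, and the difference was 0.18 (SE 0.058, adjusted p = 0.118, litter block adjusted p = 0.0701). Its second probe, with a mean of 12.76, differed by -0.0034, and a dim one, with a mean of 7.81, by 0.24. The brightest probe is therefore not matched by every other probe of the gene.

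Srsf3, the shortest of the classical SR proteins, with a part in mRNA export, had signals of 9.93, 10.36 and 10.17 in titled tooth germ, against 9.96, 9.95 and 9.85 in titled oral tissue. The groups overlapped, because the tooth germ library of litter 1 was lower than 2 of the oral tissue libraries. The difference was 0.23 (SE 0.10, adjusted p = 0.285, litter block adjusted p = 0.153), and a second probe of the gene gave 0.20. Srsf1, the founding SR protein, had signals of 13.35, 13.22 and 13.19 in titled tooth germ, against 13.21, 13.19 and 13.13 in titled oral tissue. Its difference of 0.078 (SE 0.064, adjusted p = 0.613) was within the spread of the libraries.

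Among the remaining Srsf genes, the longer SR protein Srsf4 had signals of 10.93, 11.01 and 11.01 in titled tooth germ, against 10.69, 10.81 and 10.81 in titled oral tissue. Srsf11, an SR-like protein, had 10.06, 10.10 and 9.94 against 9.82, 9.88 and 9.82. In both genes the groups did not overlap, and the differences were 0.21 and 0.19 (adjusted p = 0.157 and 0.229, litter block adjusted p = 0.0800 and 0.139). A second bright probe of Srsf11 gave 0.22, and a probe with a mean of 7.89 gave -0.12. Srsf10, which turns from a splicing activator into a repressor when it loses its phosphates, had 9.78, 9.72 and 9.35 in titled tooth germ, against 9.49, 9.46 and 9.26 in titled oral tissue. Its libraries followed the litters, with litter 3 lowest in both tissues, and the difference was 0.21 (SE 0.11, adjusted p = 0.390, litter block adjusted p = 0.110). Srsf5, Srsf6 and the dim SR-like gene Srsf12 differed by 0.067, 0.047 and 0.027 (adjusted p = 0.820, 0.839 and 0.871).

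**Figure D2:**
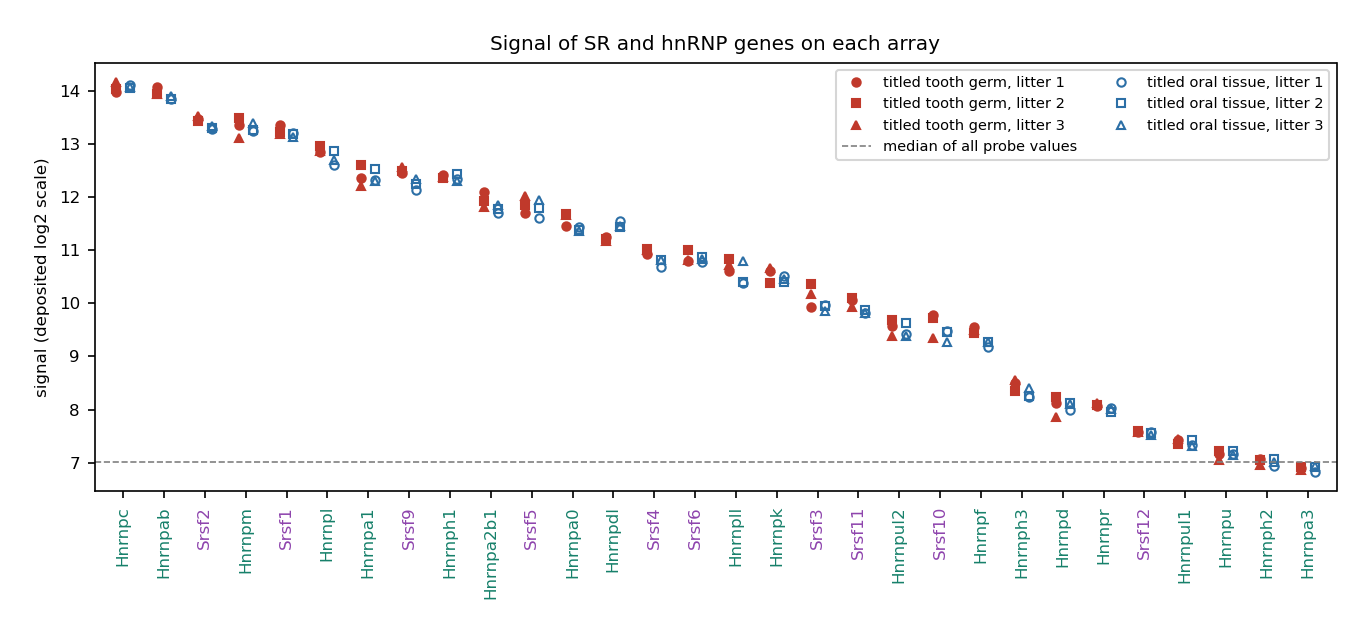
Signal on the deposited log2 scale (y axis) of each member (x axis, Srsf names in purple and Hnrnp names in green) on the 3 titled tooth germ arrays (filled red) and the 3 titled oral tissue arrays (open blue), with 1 symbol shape per litter. The points of a gene lie close together over a range of probe means from 6.90 to 14.06, and probes differ in brightness, so the order along the axis is no order of transcript amounts.

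Hnrnpdl, a relative of the AU-rich binding protein Hnrnpd, was the member with the clearest lower value. Its signals were 11.24, 11.20 and 11.17 in titled tooth germ, against 11.55, 11.43 and 11.45 in titled oral tissue. The groups did not overlap, and the log2 difference was -0.27 (SE 0.073, adjusted p = 0.0533, litter block adjusted p = 0.0238). Its other probes went both ways, at 0.19, -0.13 and 0.0086, although all 4 carry the same transcript accession. Hnrnpd itself had signals of 8.12, 8.23 and 7.86 in titled tooth germ, against 7.99, 8.13 and 8.11 in titled oral tissue, and differed by -0.0062 (adjusted p = 0.985).

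Hnrnpf, Hnrnph1, Hnrnph2 and Hnrnph3 encode proteins that bind runs of G. Hnrnpf had signals of 9.55, 9.44 and 9.50 in titled tooth germ, against 9.17, 9.28 and 9.28 in titled oral tissue, with no overlap. The difference was 0.26 (SE 0.077, adjusted p = 0.0844, litter block adjusted p = 0.0527). Hnrnph3 had signals of 8.51, 8.36 and 8.56 against 8.24, 8.26 and 8.41, a difference of 0.17 (adjusted p = 0.326). Hnrnph1, with 5 probes above the upper quartile of all values, differed by 0.027 at the brightest and by 0.056 to 0.11 at the others. Hnrnph2 averaged 7.02 ± 0.061 across titled tooth germ, against 7.01 ± 0.072 across titled oral tissue (SD, n = 3 each), at the median of all probe values.

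The A and B type proteins bind exonic and intronic silencers and travel between nucleus and cytoplasm. Hnrnpa0 had signals of 11.46, 11.69 and 11.65 in titled tooth germ, against 11.43, 11.37 and 11.36 in titled oral tissue. The groups did not overlap, though the litter 1 pair differed by only 0.026, and the difference was 0.21 (SE 0.081, adjusted p = 0.190). Its dimmer probe differed by 0.44 (SE 0.16), with an adjusted p of 0.215 over all probes and of 0.0085 with litter as a block. Hnrnpab, a relative of Hnrnpd, had 14.07, 13.94 and 13.95 in titled tooth germ, against 13.85, 13.85 and 13.90 in titled oral tissue, a difference of 0.12 (SE 0.056, adjusted p = 0.321). Hnrnpa2b1, which also carries mRNAs along processes, differed by 0.17 (adjusted p = 0.377), and the pair of litter 3 went the other way. Hnrnpa1, the best known repressor of exons, read 12.35, 12.61 and 12.22 in titled tooth germ, against 12.31, 12.54 and 12.30 in titled oral tissue, and the litters differed more than the tissues (0.0090, adjusted p = 0.979). Hnrnpa3 differed by 0.0030, but its 3 probes had means of 6.89 to 6.90, below the median of all values, so the array says little about it.

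Hnrnpc, which binds runs of U on nascent transcripts, had 13.97, 14.03 and 14.16 in titled tooth germ, against 14.10, 14.06 and 14.07 in titled oral tissue. The groups overlapped, and the difference was -0.025 (SE 0.060, adjusted p = 0.889, 95% interval -0.16 to 0.11). Hnrnpk, which binds runs of C, differed by 0.10 (adjusted p = 0.631). Hnrnpl and Hnrnpll, which bind CA repeats, differed by 0.17 and 0.19 (adjusted p = 0.305 and 0.440). The oral tissue library of litter 3 had 10.79 for Hnrnpll, the second highest of the 6, which set that pair below 0. Hnrnpm, a binder of GU-rich sites, read 13.36, 13.49 and 13.11 in titled tooth germ, against 13.25, 13.27 and 13.40 in titled oral tissue. Its pairs lay on both sides of 0, with a difference of 0.012 (adjusted p = 0.970). A probe with a mean of 12.94 gave 0.019. One with a mean of 12.58 gave 0.21 (SE 0.069, limma adjusted p = 0.161 over all probes, litter block adjusted p = 0.0712).

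The remaining Hnrnp genes had small differences and, in part, dim probes. Hnrnpr, a relative of the RNA-binding protein Syncrip, differed by 0.090, and Hnrnpul1 and Hnrnpul2, relatives of Hnrnpu, by 0.054 and 0.076 (adjusted p = 0.549, 0.695 and 0.776). Hnrnpu, a scaffold protein of the nucleus, had signals of 7.17, 7.22 and 7.06 in titled tooth germ, against 7.17, 7.22 and 7.14 in titled oral tissue. Its single probe lay close to the median of all values, and the difference was -0.026 (adjusted p = 0.860). A difference in Hnrnpu, Hnrnph2, Hnrnpul1 or Hnrnpa3, the 4 members with a mean under 7.5, may be understated at such signals, and whether it is was not tested.

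**Figure D3:**
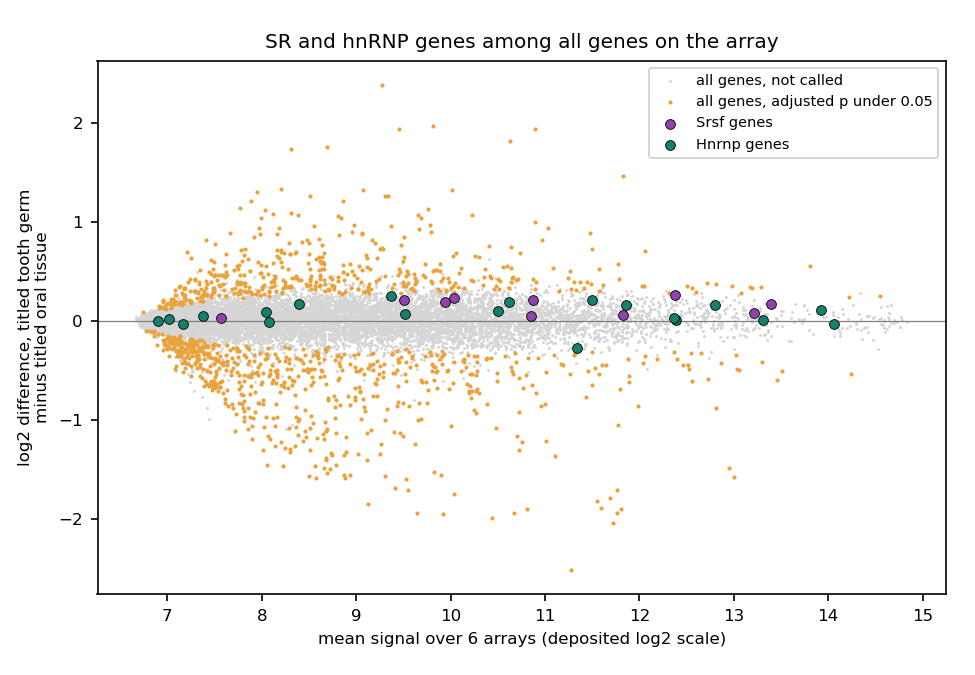
Log2 difference (y axis) against mean signal over the 6 arrays (x axis) for all 19057 genes, with the 1107 called genes in orange and the 10 Srsf and 20 Hnrnp genes as large points. The large points stay within the grey band of genes that were not called in the fit without litter.

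Probes of the same gene were compared for the members with 2 or more probes above the upper quartile of all values, 7.84. In 12 of these 18 genes all such probes had the same sign and in 6 they had both signs, namely Hnrnpc, Hnrnpdl, Hnrnpk, Srsf2, Srsf6 and Srsf11. Srsf1, Srsf3 and Srsf10 gave close values, with ranges of 0.078 to 0.088, 0.20 to 0.23 and 0.14 to 0.21. Of the 52 probes that did not stand for a member, 0 were called over all 45281 probes by limma, against 3.50% of all probes. An unadjusted p under 0.05 was found for 9 of the 52, 8 of them higher, against 13.8% of all probes and 7.05% as higher. With litter as a block 4 of the 52 were called, all higher, for Hnrnpa0, Hnrnpab, Hnrnpul2 and Srsf2, against 5.59% of all probes and 2.46% as higher.

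**Figure D4:**
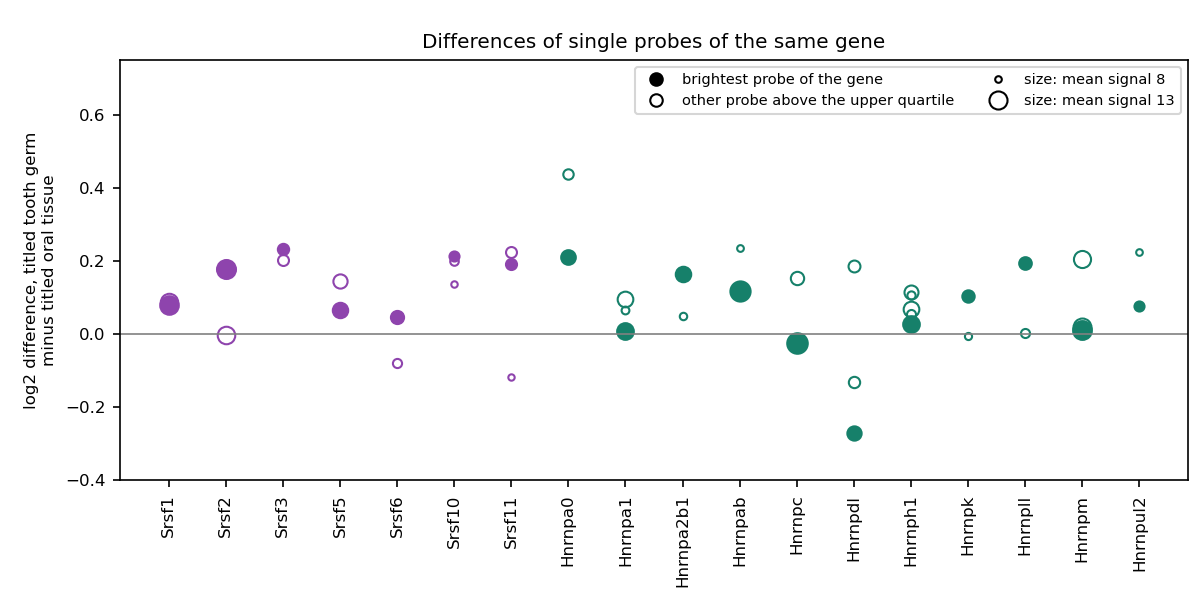
Log2 differences (y axis) of single probes for the 18 members (x axis) with 2 or more probes above the upper quartile of all values, filled for the brightest probe and open for the others, with the area growing with mean signal. The Hnrnpdl probes spread from -0.27 to 0.19, and those of Srsf1 lie together.

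The wider splicing machinery also held small differences, mostly above 0. Of 10 genes of the snRNP core and the U1 and U2 particles, 13 of branch point and splice site recognition, 13 of the tri-snRNP and activation complex and 12 SR-related proteins, 0 were called in each list by limma, and 3, 1, 2 and 1 had an unadjusted p under 0.05. Their differences were above 0 for 10, 11, 11 and 9 genes, with medians of 0.093, 0.0996, 0.073 and 0.048. Of all genes 5.81% were called, 17.1% had such an unadjusted p and 51.8% were above 0. U2af1, which reads the 3′ splice site, differed by 0.28 (adjusted p = 0.200, litter block adjusted p = 0.0344), and Tra2b, an SR-like activator, by 0.22 (adjusted p = 0.150). The Tra2b difference went as low as 0.012 over the alternative settings. Of 6 hnRNP proteins with other names 0 were called by limma, 2 had an unadjusted p under 0.05 and all 6 were above 0. Rbmx (hnRNP G) differed by 0.30 and Raly by 0.28 (adjusted p = 0.0823 and 0.219, litter block adjusted p = 0.0160 and 0.0175).

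Cell cycle genes leaned the same way. Of 12 genes 0 were called by limma and 5 had an unadjusted p under 0.05, 11 were above 0, and the median difference was 0.18. Over all genes 5.81% were called, 17.1% had such an unadjusted p and 51.8% were above 0. The mean signal of the 12 genes was 10.15 to 10.25 in titled tooth germ, against 10.04 to 10.08 in titled oral tissue. The 5 with an unadjusted p under 0.05 were Mcm2, Mcm3, Mcm6, Mcm7 and Tyms. Cdk1, Top2a and Ccna2 differed by 0.066, 0.036 and -0.051, and Mki67 and Ccnb1 were listed but not measured. The part that the cell cycle genes, the muscle markers or the epithelium markers have in the small differences of the SR and hnRNP genes was not tested. Of 11 genes of cold, heat and handling responses 1 was called, the immediate-early gene Egr1, which rose by 0.89 (adjusted p = 0.0042, and 0.0759 and 0.0544 without litter 1 and without litter 2).

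Among the regulators of the SR proteins, 1 of 10 kinase and import genes was called, against 5.81% of all genes. Srpk3, the SR kinase of striated muscle, had signals of 7.93, 7.74 and 7.83 in titled tooth germ, against 9.60, 8.88 and 9.41 in titled oral tissue, and fell by 1.46 (SE 0.15, adjusted p = 1.02e-04). The widely expressed kinase Srpk1 differed by 0.14 and Srpk2 by 0.045 (adjusted p = 0.449 and 0.815). For Srpk1 the difference went as low as 0.0034 over the alternative settings. Of 7 genes of nonsense-mediated decay 1 was called, against the same 5.81%. It was the endonuclease gene Smg6, which fell by 1.11 (adjusted p = 5.4e-05). Of its other probes, one with a mean signal of 8.30 differed by -0.98 and one of 8.34 by 0.029, so the probes of Smg6 disagree.

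Splicing regulators restricted to certain tissues included genes that passed the test. In this list of 20 genes 1 was higher and 4 were lower in titled tooth germ, against 5.81% called over all genes. With litter as a block 1 was higher and 6 were lower, against 8.88% of all genes, the added ones being Rbfox2 (-0.27, adjusted p = 0.139, litter block adjusted p = 0.0285) and Elavl3 (-0.35, adjusted p = 0.155, litter block adjusted p = 0.0381). Esrp1, the epithelial splicing regulator, had signals of 10.83, 10.94 and 10.89 in titled tooth germ, against 10.38, 10.43 and 10.48 in titled oral tissue, and rose by 0.45 (SE 0.076, adjusted p = 0.0036, and 0.0557 without litter 1). The related Esrp2 differed by 0.14 (SE 0.081, adjusted p = 0.433), and its groups overlapped. Celf2, a regulator in muscle and brain, had 10.48, 10.75 and 10.40 in titled tooth germ, against 11.23, 11.03 and 11.30 in titled oral tissue, and fell by 0.64 (SE 0.11, adjusted p = 0.0031, and 0.0721 and 0.0541 without litter 1 and without litter 3). Rbfox1, a regulator of neurons and muscle, fell by 0.50 (adjusted p = 0.0070, and 0.0640 without litter 1). Its other 2 probes had mean signals of 6.85 and 6.83, and the value was -0.015 (adjusted p = 0.922) at the brighter of them. Rbm24, a muscle regulator, and Qk, a regulator in glia and muscle, fell by 0.18 and 0.19 (adjusted p = 0.0229 and 0.0446) at mean signals of 7.09 and 7.36, and leaving out a single library ended the call for 5 of the 6 libraries in Rbm24, all except the oral tissue library of litter 2, and for all 6 in Qk. The difference between this list and the SR and hnRNP genes was not tested, and neither was the part of the muscle, neuron and epithelium markers in it.

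**Figure D5:**
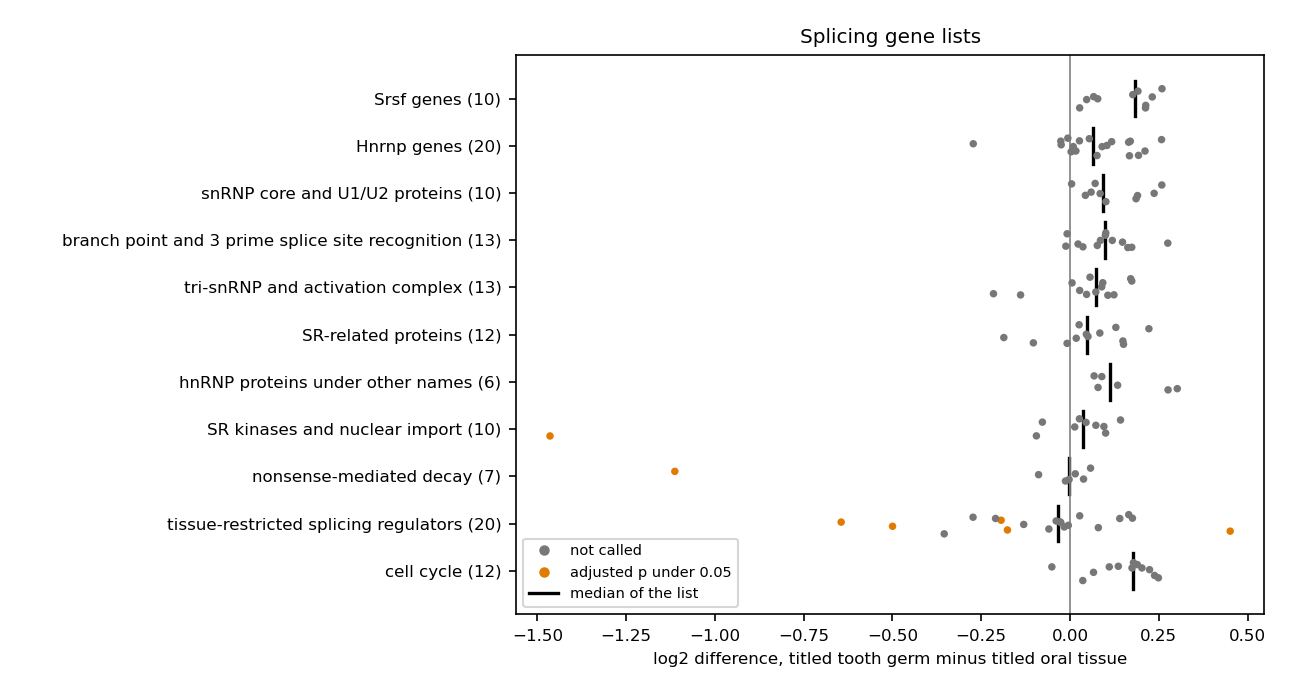
Log2 differences (x axis), titled tooth germ minus titled oral tissue, of the measured genes of each list (y axis, number in brackets), with called genes in orange and a bar at the median. In the fit without litter, the SR and hnRNP genes and the core splicing lists hold no orange point, and the tissue-restricted regulators hold 5.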

How the data were processed

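The deposited table gives, for 6 arrays, log2-scale signals per probe that the authors made with lumi 2.8.0, per the submitters' processing notes. The background correction, and whether the scale is plain log2 or lumi's variance-stabilising form, were not given by the sources. The sorted columns differ by at most 0.000827, so the table was already quantile normalized, and nothing further was applied. Depth has no count here, and 3 arrays per group limit the precision.

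Of 45281 probes 34885 had 1 gene symbol in the platform annotation. The brightest probe per gene was kept. Srsf7 was not analysed here. The test was limma 3.58.1 under R 4.3.3 (lmFit, eBayes with trend), with p-values adjusted by Benjamini-Hochberg over 19057 genes and called under 0.05, after a check on simulated data. The simulated arrays were independent, so the check does not cover libraries that share a litter.

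Same-numbered libraries share a litter per the labels. Deviations from the group means correlated at 0.413, 0.233 and 0.266 in those pairs over 9528 genes, and between -0.267 and -0.0724 in the others. Reported values come from the fit without litter unless the litter block is named.

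The members and lists were chosen with earlier results of these data known. By the rule set for naming genes, values on every array were due for up to 12 called members, the 4 uncalled members of largest difference and the 2 brightest of each family, and up to 3 genes of each other splicing list. Further members were given in full, and further list genes named, after their values were seen. Alternatives were other pairing, scaling, filtering, probe choices, variance models, thresholds and left-out libraries.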

Additional observations from a re-analysis of the deposited data

How the results depend on the processing

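The count of members called was 0 in 15 of the 22 alternatives. It was 2 with litter as a replicate block and with litter as a random effect (Srsf9 and Hnrnpdl each time) and 2 without a variance trend (Hnrnpf and Hnrnpdl). It was 1, Hnrnpdl, with median centring over the brighter genes, with dim genes (Hnrnpa3 among them) removed and with robust shrinkage, and 3 at an adjusted p under 0.1. With each library or litter left out it was 0, in fits with fewer arrays and no litter term. It was also 0 at an adjusted p under 0.01, a threshold that could not add a call. Repeating the quantile normalization gave 0 as well, on values that were already normalized. The replicate block changed no other call of a member. The count over all genes was 1693 with the replicate block, 731 with the second brightest probe and 601 at an adjusted p under 0.01, and lay between 734 (without the titled tooth germ library of litter 2) and 1025 with 1 library left out. Without litters 1 and 3 it was 549 and 668. The Srsf median was 0.12 with the mean of all probes and between 0.14 and 0.19 when libraries were left out, and the Hnrnp median lay between 0.037 and 0.098 then.

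Signs turned in the following cases. With the second brightest probe these were Hnrnpdl (0.19), Srsf2 (-0.0034), Hnrnpc (0.15), Hnrnpa3 (-0.053), Hnrnpd (0.057), Hnrnpk (-0.0066), Srsf6 (-0.081), Smg6 (0.029) and Qk (0.022). With the mean of all probes they were Hnrnpc (0.064), Hnrnpa3 (-0.015), Hnrnpd (0.025) and Srsf6 (-0.0170). Centring turned Hnrnpd (0.00462) and Hnrnpa3 (-9.77e-05), and array weights turned Hnrnpa3 (-0.0025), Hnrnpd (0.017) and Srsf5 (-0.014). With 1 library left out, the value ranged over both signs in Hnrnpa1 (-0.0998 to 0.0972), Hnrnpa3 (-0.0311 to 0.0235), Hnrnpc (-0.0777 to 0.0147), Hnrnpd (-0.0844 to 0.0981), Hnrnph1 (-0.00111 to 0.0616), Hnrnph2 (-0.0198 to 0.0524), Hnrnpm (-0.0747 to 0.119), Hnrnpu (-0.0624 to 0.0205), Srsf5 (-0.0204 to 0.15) and Srsf6 (-0.0141 to 0.0829). Leaving out a whole litter turned the sign in Hnrnpa1 (-0.0232 and -0.00508), Hnrnpa3 (-0.0359), Hnrnpc (0.0269), Hnrnpd (0.112), Hnrnph2 (-0.0418), Hnrnpm (-0.0931 and -0.0356) and Hnrnpu (0.00243). The fits with libraries left out held no litter term, and the 3 Srsf5 litter pairs were all above 0 (0.076, 0.062 and 0.061). The cause of the turned signs was not tested.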
